A study of Mus musculus with 10 samples.

Results

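The tripartite motif (TRIM) family of the mouse is described here across the cells of livers that carry colorectal cancer metastases. Members were the genes of the count tables whose symbol was Trim followed by a number and, for paralogues, a letter from a to d, which gave 68 of 32285 genes. By roles known from the literature, 15 members were listed as interferon-induced, 17 as constitutive and 33 as lineage-restricted, and Trim38, Trim69 and Trim80 were in none of these lists. The lists were drawn up with earlier results of these data known. The data were droplet single-cell transcriptomes of viable, unstained sorted cells, with matched T cell receptor libraries, and the title of the series names macrophage engineering in vivo. Livers 18 and 23 were of the group given the interferon-alpha vector (IFNa, where the labels write IFNa LV and name no promoter or cell type for it). Liver 22 was of the group given IFNa together with an antibody to CTLA-4, and livers 11 and 25 were of the group given the control vector (Control). The combination therefore had 1 liver, and no strain, age or time was given. The labels do not state how the livers were assigned to mice, and the p-values rest on the variation among these 5 libraries, which may be technical.

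Most TRIM proteins are ubiquitin ligases built from a RING domain, B-box zinc fingers and a coiled coil, often followed by a PRY-SPRY domain that recognises the target. Type I interferon acts through a receptor carried by nearly all nucleated cells, and the promoters of many of its target genes hold a repeated GAAA element. Some of those targets are TRIM genes, which act on viral capsids, on RNA sensing and on signalling, while other members work in the nucleus, in muscle or in red cell precursors irrespective of interferon.

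The libraries held 48124364 and 53608465 UMIs (unique molecular identifiers, each a counted transcript molecule) in the IFNa livers, 69856071 in the combination liver, and 55351421 and 10464216 in the Control livers. Control liver 25 had 863 barcodes, against 5574 to 9605 in the other libraries, and supplied 10 plasmacytoid dendritic cells and 13 non-classical monocytes, so its levels in those classes are the least precise. Across libraries, 387 barcode sequences occurred in more than 1. Cells were placed in classes by marker genes that include no TRIM gene, which gave 18334 gated cells, 69.9% of those kept after doublet removal. Of the cells in the CD4, CD8 and regulatory T cell gates, 83.6% to 89.4% had a T cell receptor beta chain. The deposited tables gave 15 cells each to the hepatocyte and endothelial gates and 0 to the stromal gate, so the family is described in immune, erythroid and epithelial cells of these livers and not in hepatocytes.

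Levels are given as CPM, the UMIs of a gene per 1000000 UMIs of the class in a library. Over all barcodes before filtering, TRIM transcripts made up 2031 and 1942 CPM in the IFNa livers. They made up 1899 in the combination liver, against 1202 and 1284 in the Control livers. Every library with interferon lay above both Control libraries. In the cells kept after doublet removal, 365009 UMIs were assigned to the family. Trim30a alone held 19.5% of them and Trim25 held 11.1%, while Trim28, the most counted constitutive member, held 4.33%. At the low end, 25 members had fewer than 100 UMIs in all kept cells, among them the muscle gene Trim63 and also Trim60 and Trim61 with 0. A level counts molecules without regard to transcript length and is compared between cells and livers.

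The promoter stretches below show the sequence feature that set many of the interferon-listed members apart from the rest of the family. A window of 300 bases, 250 before to 50 after each RefSeq start on GRCm38.p6, was searched on both strands for GAAANNGAAA, which is 2 copies of GAAA with a spacer of any 2 bases and reads as TTTCNNTTTC on the other strand. RefSeq windows, 67 in all, were found for 53 of the 68 members. The motif lay in at least 1 window of 8 of 14 interferon-listed members, 0 of 11 constitutive members and 1 of 25 lineage-restricted members (Trim2). Counted by single window, 3.44% of 32851 windows of all genes held it, which is not a share of genes. The split of the members follows lists that were set with earlier results of these data known. Each sequence is given 5′ to 3′ on the strand of its gene with the motif in capitals (overlapping copies for Trim21 and Trim26, and the aligned bases for Trim30c, which has no match).
Trim30a, chr7:104465195-104465254, minus strand: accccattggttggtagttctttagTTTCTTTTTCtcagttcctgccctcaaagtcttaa
Trim30d, chr7:104507856-104507915, minus strand: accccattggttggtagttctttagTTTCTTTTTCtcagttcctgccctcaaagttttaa
Trim30c, chr7:104400881-104400940, minus strand: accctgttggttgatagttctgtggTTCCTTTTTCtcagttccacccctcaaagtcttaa
Trim12c, chr7:104353350-104353409, minus strand: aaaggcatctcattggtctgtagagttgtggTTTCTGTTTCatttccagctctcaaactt
Trim5, chr7:104288121-104288180, minus strand: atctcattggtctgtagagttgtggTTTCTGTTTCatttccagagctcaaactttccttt
Trim34a, chr7:104244457-104244486, plus strand: tggtttggagTTTCAGTTTCttttctctgc
Trim21, chr7:102565447-102565476, minus strand: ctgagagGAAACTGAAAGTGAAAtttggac
Trim26, chr17:36836964-36837023, plus strand: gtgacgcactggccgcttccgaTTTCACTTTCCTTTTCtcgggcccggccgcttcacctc

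The Trim30a and Trim30d stretches were identical at 59 of 60 bases, and the motif lay 36 to 27 bases before the Trim30a start and 41 to 32 before the Trim30d start. The aligned Trim30c stretch matched Trim30a at 52 of 60 bases, and its capitals carry 1 substitution against the Trim30a motif, T3C, counted from the 5′ end of the motif as printed, so it is no match. In the Trim30b window the best ungapped counterpart shared 23 of 60 bases, and none is printed. The windows of Trim5, Trim12a and Trim12c shared an unbroken run of 63 bases that contains the motif, at 49 to 40 bases before the start in Trim5, 29 to 20 before it in Trim12c, and 11 to 20 after it in Trim12a. Trim25 and Trim56 had no match in their windows. A match or its absence describes these letters alone.

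The same genes lie close together. On GENCODE vM21 positions (mm10), Trim6, Trim34a, Trim5, Trim12a, Trim34b, Trim12c, Trim30b, Trim30c, Trim30a and Trim30d run from 104218793 to 104507849 on chromosome 7, 10 members in 289 kb. Between IFNa and Control livers, 9 of those 10 members passed the filter on low counts in at least 1 cell class and 8 were called in at least 1. Of the 6 members in the cluster on chromosome 17, 3 were tested and 1 was called (Trim26), and of the 52 members elsewhere 32 were tested and 4 were called (Trim14, Trim21, Trim25 and Trim56). Of all genes tested in at least 1 class, 5.39% were called higher in at least 1. Sequence similarity within the chromosome 7 cluster means that reads of one paralogue can be assigned to another, so sums over paralogues are given with the results.

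For the comparison of IFNa with Control livers, UMIs were summed per library and class and fitted with edgeR's quasi-likelihood test over all genes, with Benjamini-Hochberg adjustment and a threshold of 0.05. Of 367 member and class pairs tested in 12 classes, 50 were higher in IFNa livers and 0 were lower, where 1.56% of all gene and class pairs were higher and 0.695% were lower. At an unadjusted p under 0.05, 99 pairs were higher and 9 were lower, and DESeq2 called 33 higher and 0 lower. All 50 pairs belonged to the interferon list, in which 13 of 15 members were called at least once. Because the lists were set with earlier results of these data known, this split is no independent test of them. The constitutive list had 170 pairs tested and 0 called by edgeR, with 2 higher and 6 lower at an unadjusted p under 0.05. The lineage list had 46 pairs tested and 0 called, with 3 at an unadjusted p under 0.05. Pairs share libraries and are not independent counts, and 24 of the 68 members passed the filter on low counts in no class. A member that passed it through the treated livers alone had to be higher in them, which bears most on low members such as Trim30b and Trim30c.

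**Figure D1:**
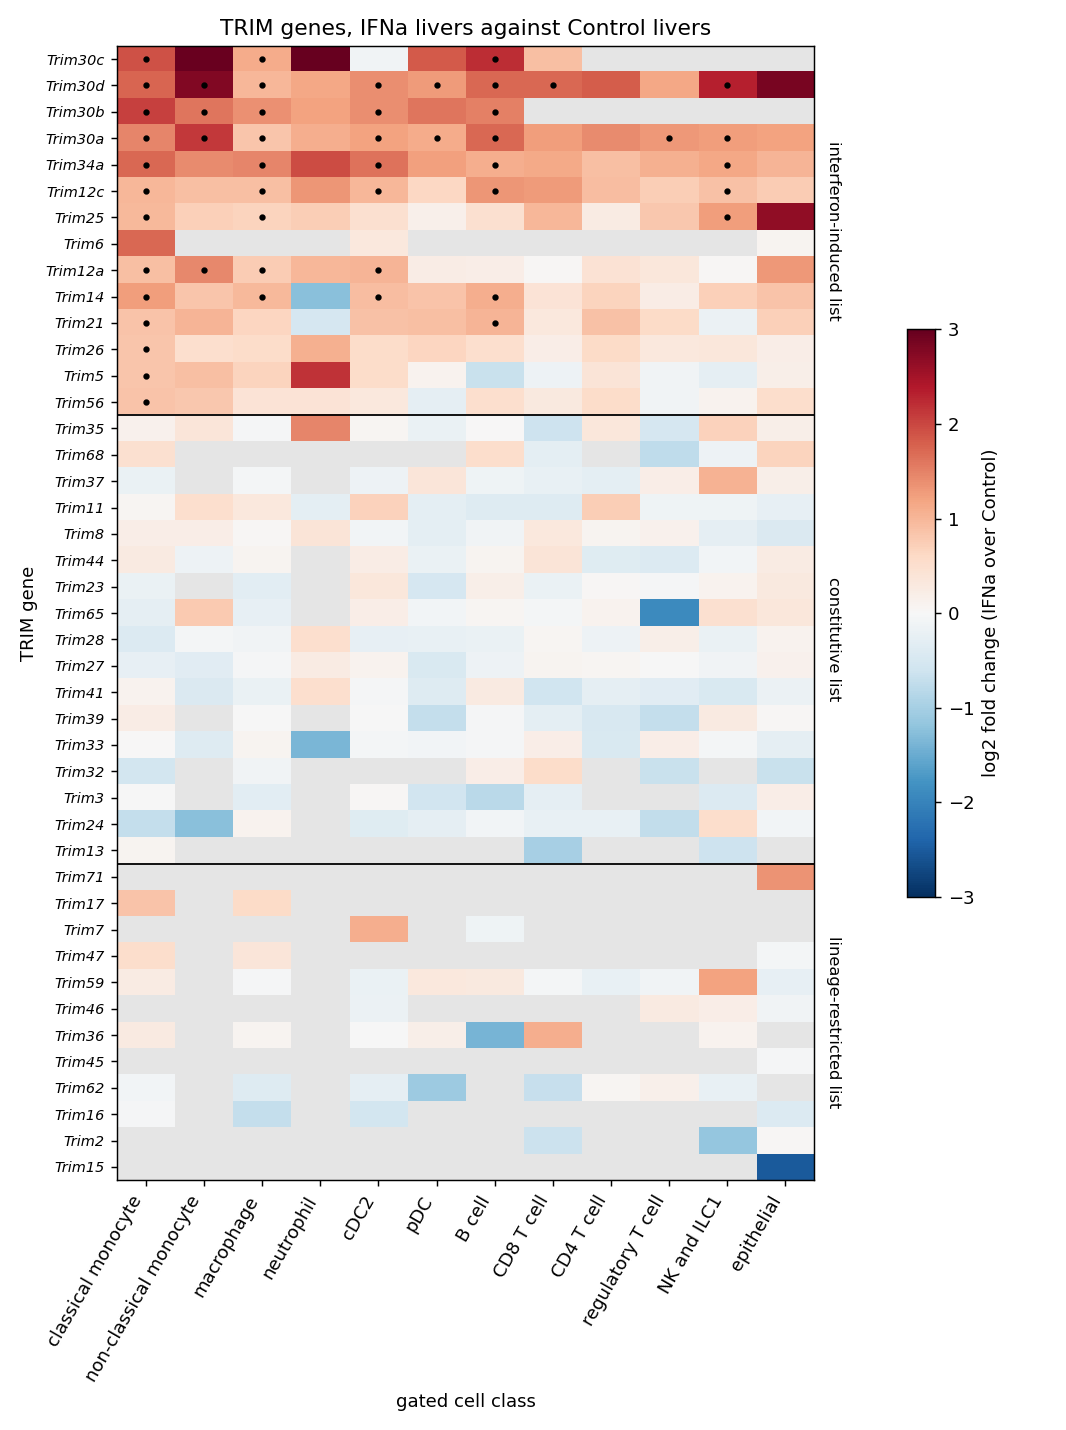
Log2 fold change of IFNa over Control livers for listed TRIM members (rows) in 12 gated cell classes (columns), with a dot where the adjusted p was under 0.05 and blank cells where a member was not tested. The dots, 50 in all, lie within the block of interferon-listed members.

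Classical monocytes, the class with the most calls, had 13 of the 14 interferon-listed members that passed the filter higher in IFNa livers, where 5.82% of all genes tested in the class were higher. The median log2 fold change of those 14 members was 1.13, against 0.01 for 17 constitutive members and a median within 0.01 of 0 for all genes. Summed over the interferon list, classical monocytes held 1889 and 1766 CPM in IFNa livers and 1982 in the combination liver, against 697 and 820 in Control livers. The constitutive list held 358 and 382 CPM in IFNa livers and 338 in the combination liver, against 371 and 396 in Control livers. The interferon sums of treated and Control livers were far apart, whereas the constitutive sums of the IFNa and Control livers overlapped. In B cells the constitutive sum was 601 and 616 in IFNa livers and 584 in the combination liver, against 659 and 690 in Control livers, and in plasmacytoid dendritic cells it was 590 and 607 in IFNa livers and 639 in the combination liver, against 700 and 784 in Control livers. Treated livers were the lower ones in both of these classes, without a call for any constitutive member, and in epithelial cells they were the higher ones, at 541 and 596 in IFNa livers and 535.1 in the combination liver, against 512 and 534.8 in Control livers.

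Among the other phagocytes, macrophages had 9 of 13 interferon-listed members higher (background 3.28% of genes; median log2 fold change 0.82), non-classical monocytes 4 of 13 (background 2.28%; median 1.01) and type 2 conventional dendritic cells 7 of 14 (background 2.04%; median 0.90). Plasmacytoid dendritic cells, known as the main producers of type I interferon, had 2 of 13 higher (background 0.927%; median 0.86). Neutrophils had 0 of 13 called by edgeR (background 0.957%; median 1.08), with 8 of them at an unadjusted p under 0.05. The neutrophil interferon sum was 1639 and 2202 CPM in IFNa livers and 1238 in the combination liver, against 858 and 975 in Control livers, so the treated livers were again the higher ones without a call for any member.

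Among lymphocytes, B cells had 8 of 13 interferon-listed members higher (background 1.25%; median log2 fold change 1.08) and NK cells 5 of 11 (background 0.69%; median 0.72). In T cells few members were called. CD8 T cells had 1 of 12 higher (background 0.328%; median 0.66), regulatory T cells 1 of 11 (background 0.139%; median 0.58) and CD4 T cells 0 of 11 (background 0.142%; median 0.67), with 6 of the 11 in CD4 T cells at an unadjusted p under 0.05. The interferon sum in CD8 T cells was 1219 and 1199 CPM in IFNa livers and 1208 in the combination liver, against 685 and 743 in Control livers. Groups did not overlap in that sum, and the small number of calls there does not show a smaller effect. The difference of the IFNa effect between each class and CD8 T cells was tested as an interaction in 429 pairs of 39 members, and edgeR called 0 pairs, where 0.134% of all genes tested were called. At an unadjusted p under 0.05 there were 38, of which 27 were larger and 11 smaller than in CD8 T cells, and no DESeq2 fit was made.

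Epithelial cells, which hold tumour and duct cells, had 0 of 12 interferon-listed members called, and 0% of all genes tested in that class were higher. The interferon sum there was 194 and 334 CPM in IFNa livers and 157 in the combination liver, against 140 and 135 in Control livers. IFNa liver 23 stood apart in that class, with a median of 3167 UMIs per cell against 17933 in IFNa liver 18, and its summed macrophage markers were 134 CPM against 37 in liver 18. Apoe carried most of these markers, at 91.9 against 27.9. C1qb stood at 13.7 against 0.985, C1qc at 6.63 against 0.328, C1qa at 3.09 against 0 and Adgre1 at 1.77 against 0. These genes were low in both livers and higher in liver 23. The part of depth or of macrophage transcripts in the interferon sum was not tested.

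**Figure D2:**
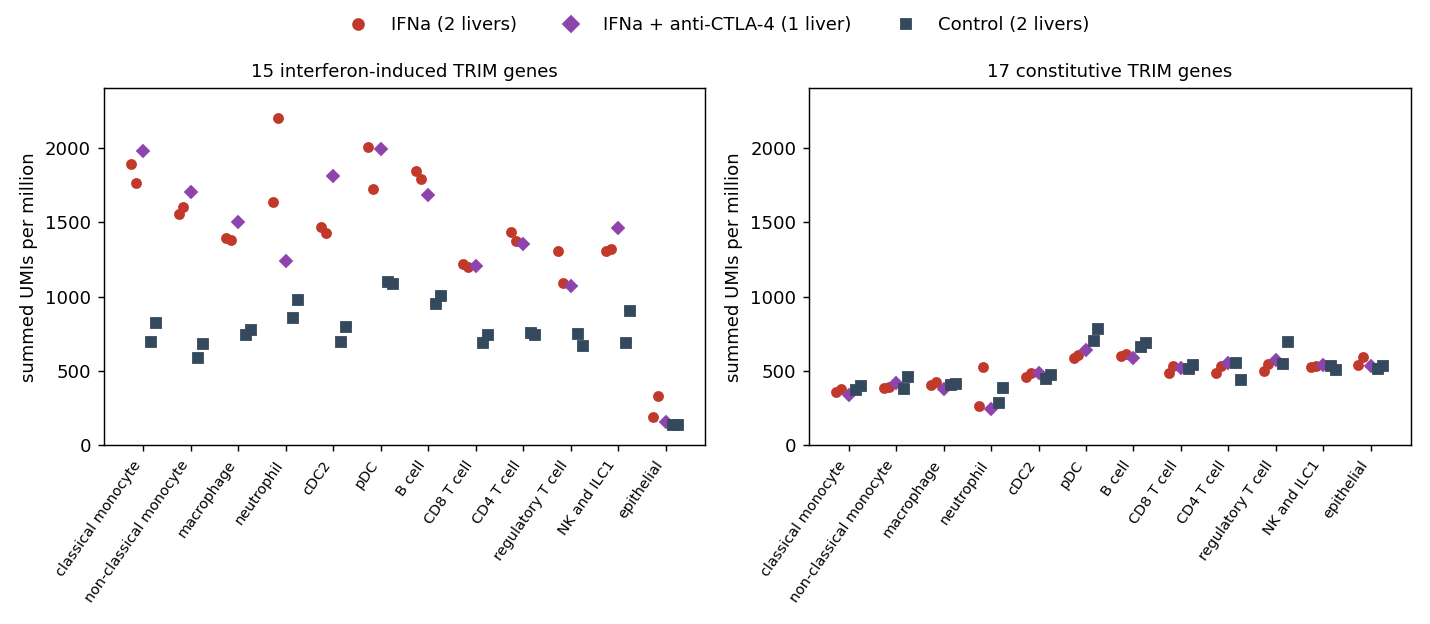
Summed CPM of the 15 interferon-listed and 17 constitutive members (panels) in each gated class (horizontal axis), 1 symbol per liver, with circles for IFNa, diamonds for the combination and squares for Control. Interferon sums of treated livers lie above those of Control livers in each class shown, while constitutive sums, between 248 and 784, lie lower in treated than in Control livers in B cells and plasmacytoid dendritic cells and overlap between IFNa and Control livers in classical monocytes.

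Among the called pairs, the largest fold changes were those of Trim30 genes. Trim30a restrains NF-kappaB signalling by promoting loss of TAB2 and TAB3 in mouse macrophages. It was called in 8 of 12 classes and its log2 fold change was positive in all 12. In classical monocytes Trim30a stood at 629 and 579 CPM in IFNa livers and 669 in the combination liver, against 190 and 257 in Control livers (IFNa over Control log2 fold change 1.46 ± 0.17 (SE), edgeR adjusted p = 0.00326). In non-classical monocytes it stood at 489 and 496 in IFNa livers and 531 in the combination liver, against 111 and 117 in Control livers (2.12 ± 0.25, edgeR adjusted p = 6.01e-06). In both monocyte classes the Control livers lay below every treated liver by more than the spread within a group.

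In B cells Trim30a stood at 403 and 378 CPM in IFNa livers and 382 in the combination liver, against 120 and 130 in Control livers (log2 fold change 1.72 ± 0.13, edgeR adjusted p = 6.57e-05). In type 2 dendritic cells it stood at 455 and 452 in IFNa livers and 642 in the combination liver, against 197 and 193 in Control livers (1.20 ± 0.16, edgeR adjusted p = 0.00146). In regulatory T cells it stood at 375 and 347 in IFNa livers and 338 in the combination liver, against 158 and 131 in Control livers (1.30 ± 0.19, edgeR adjusted p = 0.0338). The regulatory T cell difference was the only TRIM call in that class, and it was kept under every alternative run. Trim30a was also higher in macrophages (0.82), NK cells (1.25) and plasmacytoid dendritic cells (1.12), each call ending without 1 library: without Control liver 11 the edgeR adjusted p was 0.0589 in macrophages and 0.137 in NK cells, and without IFNa liver 18 it was 0.0802 in plasmacytoid dendritic cells. In CD8 T cells it had 324 and 320 CPM in IFNa livers against 139 and 131 in Control livers, with an edgeR adjusted p of 0.0668, and it passed with DESeq2 (0.00396), without the low-count filter (0.00376) and without IFNa liver 23 (0.0161).

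Trim30d, a paralogue with a nearly identical promoter stretch, was called in 8 classes. In classical monocytes Trim30d stood at 231 and 213 CPM in IFNa livers and 240 in the combination liver, against 61.5 and 74.6 in Control livers (log2 fold change 1.74 ± 0.15, edgeR adjusted p = 0.000812). In B cells it stood at 116 and 108 in IFNa livers and 109 in the combination liver, against 34.8 and 36.9 in Control livers (1.73 ± 0.14, edgeR adjusted p = 0.00011). Control livers were the lowest in both. In NK cells it stood at 108 and 114 in IFNa livers and 117 in the combination liver, against 17.2 and 38.8 in Control livers (2.34 ± 0.27, edgeR adjusted p = 0.000626, and 0.0761 without Control liver 11). In non-classical monocytes it stood at 188 and 203 in IFNa livers and 243 in the combination liver, against 25.4 and 38.9 in Control livers (2.78 ± 0.34, edgeR adjusted p = 7.14e-06, and 0.0670 without Control liver 11). Macrophages (1.00) and type 2 dendritic cells (1.39) were also called for Trim30d, with plasmacytoid dendritic cells (1.28, edgeR adjusted p = 0.0109, and 0.0852 without IFNa liver 18). It was the one member called in CD8 T cells (1.72 ± 0.27, edgeR adjusted p = 0.0475), where leaving out Control liver 11 gave 0.341.

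Trim30b and Trim30c were found in fewer cells. Trim30b in classical monocytes stood at 94.4 and 76.0 CPM in IFNa livers and 93.8 in the combination liver, against 19.6 and 22.6 in Control livers (log2 fold change 2.06 ± 0.16, edgeR adjusted p = 0.000615). In B cells Trim30b stood at 120 and 103 in IFNa livers and 83.4 in the combination liver, against 40.3 and 41.7 in Control livers (1.52 ± 0.14, edgeR adjusted p = 0.000342). Both classes separated the treated from the Control livers. Trim30b was also higher in type 2 dendritic cells (1.40), macrophages (1.38, edgeR adjusted p = 0.140 without Control liver 11) and non-classical monocytes (1.60), where the call ended without Control liver 11 (0.454), Control liver 25 (0.140) or IFNa liver 18 (0.802). Trim30c in classical monocytes stood at 83.4 and 66.1 in IFNa livers and 107 in the combination liver, against 16.1 and 28.1 in Control livers (1.91 ± 0.25, edgeR adjusted p = 0.0046). In B cells Trim30c stood at 47.3 and 47.1 in IFNa livers and 35.9 in the combination liver, against 6.46 and 23.8 in Control livers (2.20 ± 0.36, edgeR adjusted p = 0.0126). The Control livers of that class were far apart, and the Trim30c log2 fold change was 1.08 without Control liver 11 and 2.93 without Control liver 25. Trim30c was also higher in macrophages (1.12, with an edgeR adjusted p of 0.0852 without Control liver 11).

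The 4 Trim30 paralogues were also summed as 1 feature, so that a read assigned to the wrong one of them no longer matters. A sum does not restore reads that were counted for none of them. By this sum, classical monocytes had 1038 and 934 CPM in IFNa livers and 1111 in the combination liver, against 288 and 383 in Control livers (log2 fold change 1.58, edgeR adjusted p = 0.00230). B cells had 687 and 637 in IFNa livers and 610 in the combination liver, against 201 and 232 in Control livers (1.70, edgeR adjusted p = 0.000117). Non-classical monocytes had 795 and 768 in IFNa livers and 862 in the combination liver, against 162 and 185 in Control livers (2.21, edgeR adjusted p = 1.012e-06). All 3 sums were called. In CD8 T cells the sum was 428 and 445 in IFNa livers and 447 in the combination liver, against 179 and 168 in Control livers (1.34, edgeR adjusted p = 0.0567), so the Trim30d call in that class did not hold for the sum.

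**Figure D3:**
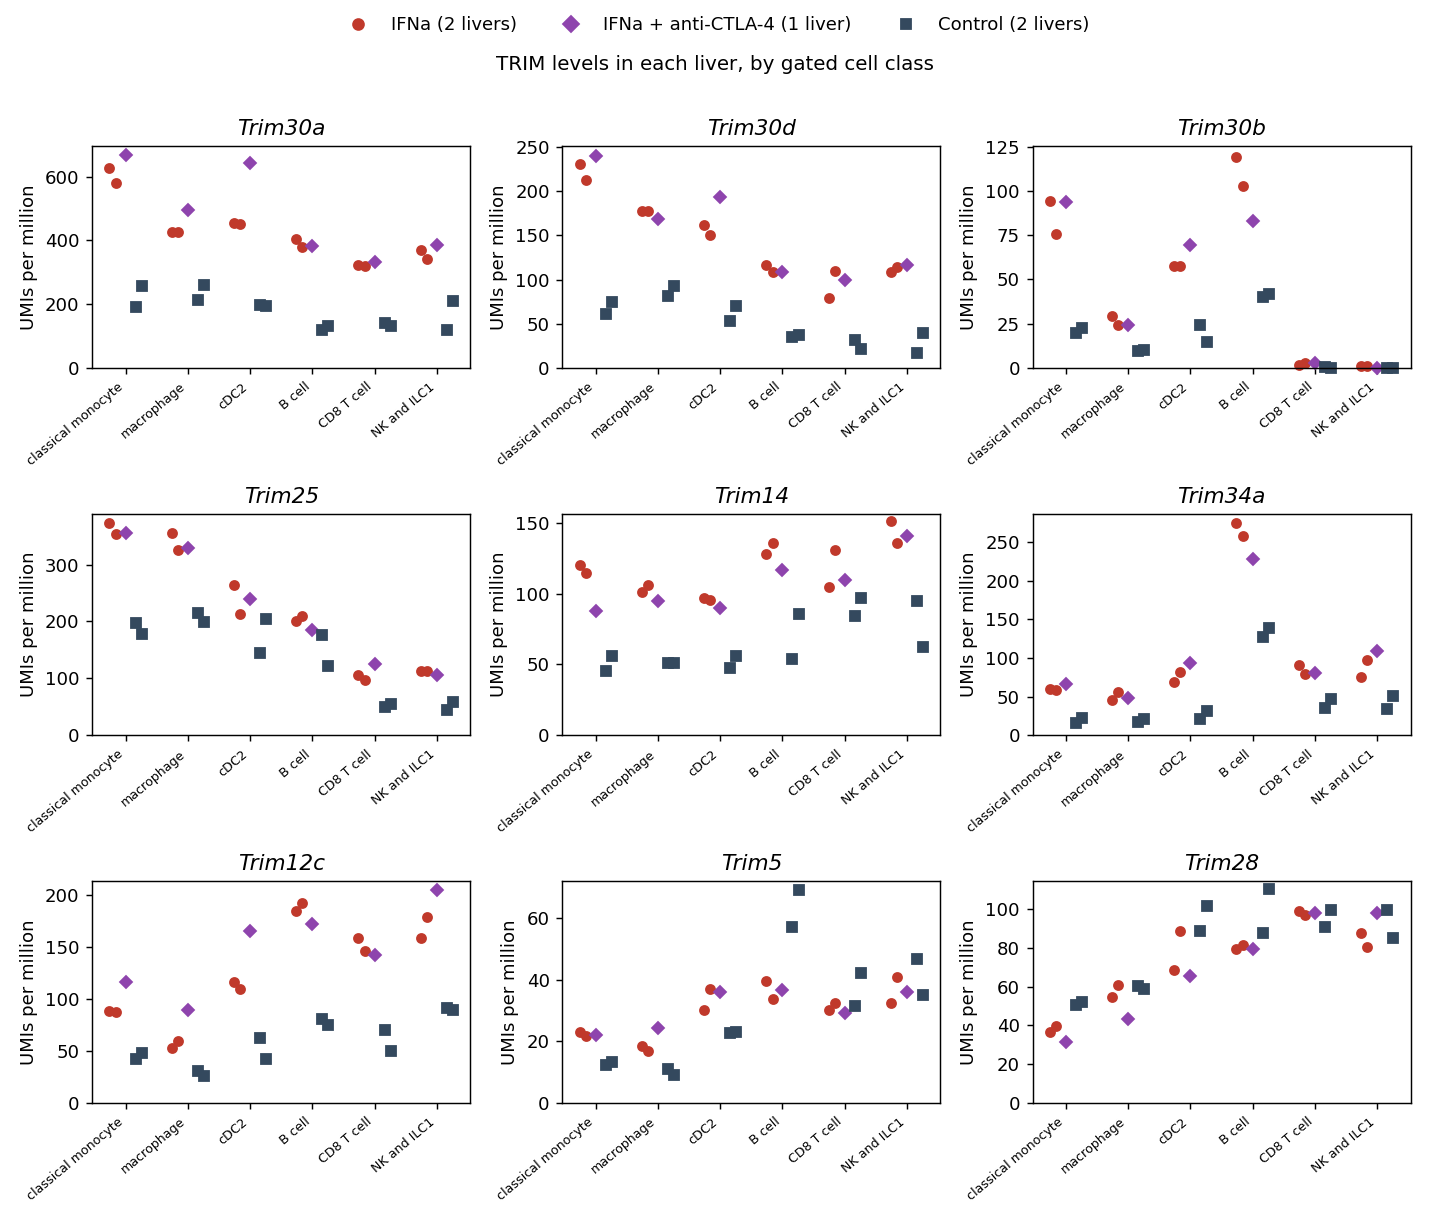
CPM of 9 TRIM members (panels) in 6 gated classes, 1 symbol per liver, with IFNa as circles, the combination as diamonds and Control as squares. In the panels of the Trim30 genes the treated livers lie above the Control livers in monocytes and B cells, and in the panel of the constitutive Trim28 they do not.

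The makeup of the Trim30 transcripts differed between cell classes. Trim30b gave 16.04% of Trim30 UMIs in B cells, 15.57% in neutrophils, 9.04% in non-classical monocytes and 8.25% in classical monocytes. It gave 0.523% in CD8 T cells, 0.229% in CD4 T cells, 0.169% in NK cells and 0.0953% in regulatory T cells. The mean Trim30b level over livers was 77.6 CPM in B cells and 75.1 in neutrophils, so a high level was not particular to B cells. The share in B cells was 17.4% and 16.2% in IFNa livers and 13.7% in the combination liver, against 20% and 17.9% in Control livers, so it was at least as high without the interferon vector. In neutrophils it was 18.9% and 8.33% in IFNa livers and 5.63% in the combination liver, against 17.5% and 8.89% in Control livers. In the fit of each class against the mean of the others with library as a block, Trim30b was higher in B cells (log2 difference 3.08 ± 0.15 (SE), edgeR adjusted p = 1.81e-28) and lower in CD8 T cells (−2.81 ± 0.36, edgeR adjusted p = 6.776e-10). By cells, 36.3% and 34.9% of B cells in IFNa livers and 31.0% in the combination liver had a Trim30b UMI, against 13.7% (95% interval 11.3% to 16.3%) and 17.7% (11.9% to 24.8%) in Control livers. Among CD8 T cells, which are deeper, the share was 1.06% and 1.92% in IFNa livers and 1.80% in the combination liver, against 0.376% and 0% in Control livers. Median depths were 3711 to 5150 UMIs in B cells and 6295 to 8243 in CD8 T cells, and the exact binomial intervals cover counting error only.

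**Figure D4:**
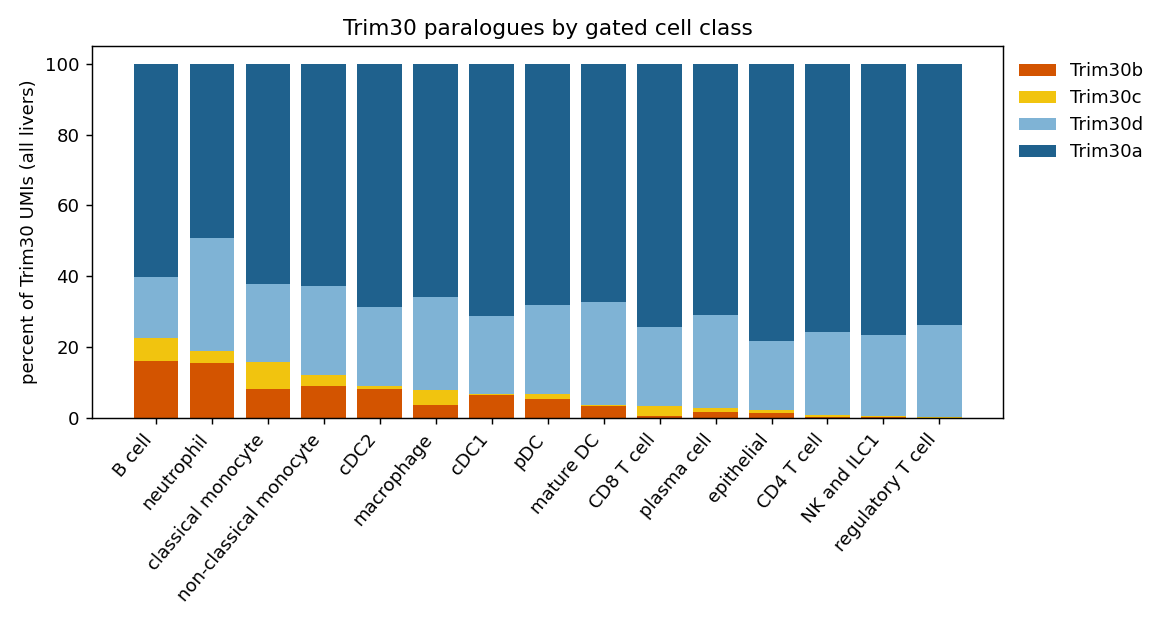
Percent of Trim30 UMIs that were assigned to Trim30a, Trim30b, Trim30c and Trim30d (stacked) in 15 gated classes, summed over the 5 livers. Trim30b makes up 16.04% in B cells, 15.57% in neutrophils and 0.523% in CD8 T cells.

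Trim12a, Trim12c and Trim5 are mouse relatives of the human restriction factor TRIM5, which binds retroviral capsids. Trim12c was called in 5 classes. In B cells Trim12c stood at 185 and 193 CPM in IFNa livers and 173 in the combination liver, against 80.6 and 75.0 in Control livers (log2 fold change 1.33 ± 0.12, edgeR adjusted p = 0.000278). In classical monocytes it stood at 88.3 and 87.3 in IFNa livers and 117 in the combination liver, against 42.0 and 48.0 in Control livers (1.00 ± 0.13, edgeR adjusted p = 0.00445, and 0.0546 without Control liver 11). In both, every treated liver was above every Control liver. Trim12c was also higher in type 2 dendritic cells (1.00), macrophages (0.91, edgeR adjusted p = 0.0586 without Control liver 11) and NK cells (0.89, edgeR adjusted p = 0.173 without Control liver 11 and 0.115 without IFNa liver 23).

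Trim12a was called in classical monocytes (0.90), non-classical monocytes (1.43), macrophages (0.77) and type 2 dendritic cells (1.01), and each of these calls ended without at least 1 library. Without Control liver 11 the edgeR adjusted p of Trim12a was 0.116 in classical monocytes, 0.565 in non-classical monocytes and 0.123 in macrophages, and without IFNa liver 23 it was 0.182 in type 2 dendritic cells. Without IFNa liver 18 it was 0.487 in non-classical monocytes, without IFNa liver 23 it was 0.282 there and 0.115 in macrophages, and without Control liver 25 it was 0.0514 in macrophages. In B cells Trim12a stood at 154 and 160 CPM in IFNa livers and 147 in the combination liver, against 141 and 144 in Control livers, a log2 fold change of 0.20 beside that of 1.33 for Trim12c. The sum of Trim12a and Trim12c was higher in B cells (0.72, edgeR adjusted p = 0.0138) and in classical monocytes (0.94, edgeR adjusted p = 0.00821). In NK cells the sum was 282 and 308 CPM in IFNa livers and 380 in the combination liver, against 191 and 264 in Control livers (0.44, edgeR adjusted p = 0.773), so the Trim12c call there did not hold for the sum.

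Trim5 had fold changes of opposite sign in B cells and classical monocytes. In classical monocytes it stood at 22.8 and 21.8 CPM in IFNa livers and 21.9 in the combination liver, against 12.3 and 13.3 in Control livers (log2 fold change 0.83 ± 0.16, edgeR adjusted p = 0.0203, and 0.165 without Control liver 11 and 0.0591 without IFNa liver 18). In B cells Trim5 stood at 39.5 and 33.8 in IFNa livers and 36.7 in the combination liver, against 57.2 and 69.0 in Control livers (−0.66 ± 0.16, edgeR adjusted p = 0.0980, and 0.0371 without Control liver 11 and 0.00968 without the low-count filter). The groups did not overlap in either class, and the B cell difference did not pass the threshold. The difference between B cells and classical monocytes was not tested. The B cell pair was the only one of the interferon list that was lower at an unadjusted p under 0.05 (0.00194). The promoter windows of Trim5 and Trim12c share the run of 63 bases, and Trim12c in the same B cells was higher in IFNa livers, with an edgeR adjusted p of 0.000278.

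Trim34a, a PRY-SPRY member next to Trim5, was called in 5 classes. In B cells Trim34a stood at 274 and 258 CPM in IFNa livers and 228 in the combination liver, against 127 and 138 in Control livers (log2 fold change 1.08 ± 0.12, edgeR adjusted p = 0.00106). In classical monocytes it stood at 59.5 and 58.0 in IFNa livers and 66.3 in the combination liver, against 16.1 and 22.3 in Control livers (1.71 ± 0.17, edgeR adjusted p = 0.00146). B cells thus held more Trim34a without the vector than classical monocytes held with it. Type 2 dendritic cells (1.64) and macrophages (1.47, edgeR adjusted p = 0.0519 without Control liver 11) were also called. In NK cells (1.16, edgeR adjusted p = 0.0472) the adjusted p of Trim34a was 0.478 without Control liver 11 and 0.0785 without IFNa liver 23. Its near copy Trim34b had 53 UMIs in all kept cells and was tested in no class.

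Trim25, the ligase best known for ubiquitination of the RNA sensor RIG-I, was one of the most abundant members. In classical monocytes Trim25 stood at 373 and 354 CPM in IFNa livers and 356 in the combination liver, against 196 and 178 in Control livers (log2 fold change 0.97 ± 0.14, edgeR adjusted p = 0.00686). In NK cells it stood at 113 and 114 in IFNa livers and 106 in the combination liver, against 43.4 and 58.2 in Control livers (1.26 ± 0.20, edgeR adjusted p = 0.00732, and 0.231 without Control liver 11). Treated and Control livers were apart in both classes. In macrophages the log2 fold change was 0.66 (edgeR adjusted p = 0.0234, and 0.0529 without Control liver 11, 0.0595 without Control liver 25 and 0.135 without IFNa liver 18). Across classes, the mean Trim25 level over livers was 313 CPM in plasmacytoid dendritic cells, 308 in neutrophils, 292 in classical monocytes and 285 in macrophages, then 179 in B cells, and it lay between 86.3 and 99.5 in T and NK cells. Log2 differences from the mean of the other classes were 1.48 in neutrophils, 1.33 in classical monocytes, 1.31 in macrophages and 1.11 in plasmacytoid dendritic cells. In epithelial cells Trim25 was nearly absent, at 5.91 and 11.9 CPM in IFNa livers and 0 in the combination liver, against 1.54 and 0 in Control livers.

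Trim14, which lacks a RING domain and works with the MAVS adaptor and the DNA sensor cGAS, was called in 4 classes. In classical monocytes Trim14 stood at 121 and 115 CPM in IFNa livers and 88.1 in the combination liver, against 45.6 and 55.8 in Control livers (log2 fold change 1.26 ± 0.14, edgeR adjusted p = 0.00247). In macrophages it stood at 102 and 106 in IFNa livers and 94.7 in the combination liver, against 50.8 and 51.3 in Control livers (0.97 ± 0.15, edgeR adjusted p = 0.00156). In B cells it stood at 128 and 136 in IFNa livers and 117 in the combination liver, against 53.8 and 85.7 in Control livers (1.10 ± 0.18, edgeR adjusted p = 0.0131). The combination liver lay between IFNa and Control livers in all 3 classes. The fourth call was in type 2 dendritic cells (0.93, edgeR adjusted p = 0.016).

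The other called members were Trim21, Trim26 and Trim56. Trim21, the cytosolic antibody receptor, stood at 23.9 and 23.4 CPM in B cells of IFNa livers and 32.1 in the combination liver, against 12.3 and 11.9 in Control livers (log2 fold change 1.02 ± 0.20, edgeR adjusted p = 0.036). In classical monocytes Trim21 stood at 31.2 and 35.2 in IFNa livers and 43.2 in the combination liver, against 15.3 and 24.2 in Control livers (0.86 ± 0.21, edgeR adjusted p = 0.0468). Both Trim21 calls ended without Control liver 11 (edgeR adjusted p = 0.113 in B cells and 0.297 in classical monocytes) and without IFNa liver 23 (0.113 and 0.0935), and the B cell call also without IFNa liver 18 (0.104). Trim26, which lies beside the class I MHC genes, stood at 46.8 and 49.5 in classical monocytes of IFNa livers and 54.9 in the combination liver, against 28.9 and 23.8 in Control livers (0.84 ± 0.15, edgeR adjusted p = 0.0143, and 0.0515 without Control liver 11). Trim56, a partner of the STING pathway, stood at 41.3 and 44.0 there in IFNa livers and 54.4 in the combination liver, against 20.5 and 30.1 in Control livers (0.85 ± 0.19, edgeR adjusted p = 0.033, and 0.221 without Control liver 11). Trim6, also of the interferon list, was called nowhere. In classical monocytes it stood at 1.61 and 1.52 in IFNa livers and 0.95 in the combination liver, against 0.486 and 0.390 in Control livers, and its highest levels were in epithelial cells, at 30.2 and 22.1 in IFNa livers and 27.0 in the combination liver, against 20.3 and 27.6 in Control livers.

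Of the 50 calls, 20 in 8 members and 6 classes were kept in every alternative run. They were Trim30a in B cells, regulatory T cells, type 2 dendritic cells and both monocyte classes, Trim30d in B cells, macrophages, type 2 dendritic cells and classical monocytes, Trim14 in B cells, macrophages and classical monocytes, Trim34a in B cells, type 2 dendritic cells and classical monocytes, Trim30b in B cells and classical monocytes, Trim12c in B cells, and Trim25 and Trim30c in classical monocytes. With DESeq2, 18 of the calls were lost. Those that no left-out library ended were Trim30c in B cells (DESeq2 adjusted p = 0.918) and Trim12c (0.0650), Trim14 (0.218) and Trim30b (0.0560) in type 2 dendritic cells.

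The dendritic and B cell gates were checked against the markers of classical monocytes. In type 2 dendritic cells the summed classical monocyte markers were 2207 and 1893 CPM in IFNa livers and 3141 in the combination liver, against 654 and 744 in Control livers. Ly6c2 carried this, at 1674 and 1413 in IFNa livers and 2573 in the combination liver, against 133 and 116 in Control livers, while Vcan, F13a1 and Chil3 stayed at or under 4.93 in every library. In B cells Ly6c2 likewise stood at 307 and 332 in IFNa livers and 658 in the combination liver, against 14.1 and 5.95 in Control livers, and the same defining monocyte genes stayed at or under 6.46. In the classical monocyte gate, 289 of 1057 and 236 of 617 cells in IFNa livers had only the minimum number of markers. This held for 132 of 395 in the combination liver, against 164 of 1281 and 23 of 175 in Control livers. The part of Ly6c2 in this difference was not tested.

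Constitutive members showed no call between IFNa and Control livers in any class. Trim28, the KAP1 corepressor that silences retroelements, came closest with Trim24. In classical monocytes Trim28 stood at 36.7 and 39.6 CPM in IFNa livers and 31.1 in the combination liver, against 50.6 and 51.9 in Control livers (log2 fold change −0.41, edgeR adjusted p = 0.0946, and 0.0403 with the stricter marker gate). Trim24, a KAP1 relative, stood at 6.56 and 7.46 in IFNa livers and 9.26 in the combination liver, against 11.9 and 10.9 in Control livers (−0.72, edgeR adjusted p = 0.0780, and 0.0406 without the low-count filter). Trim33, the TIF1-gamma corepressor, stood at 35.2 and 36.5 in IFNa livers and 33.3 in the combination liver, against 36.5 and 35.1 in Control livers. Treated livers were the lower ones for Trim28 and Trim24, and the groups overlapped for Trim33. The lineage member nearest to the threshold was Trim59 in NK cells, at 34.5 and 31.4 in IFNa livers and 31.6 in the combination liver, against 14.7 and 11.6 in Control livers (1.21, edgeR adjusted p = 0.181).

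Against the same Control livers, the combination liver had 53 of 367 pairs higher and 0 lower by edgeR, where 2.03% of all gene and class pairs were higher and 0.683% were lower. At an unadjusted p under 0.05 there were 89 higher and 8 lower, and DESeq2 called 29 higher and 0 lower. The fit takes the spread of this single liver from the other groups. Of the 53 pairs, 52 belonged to the interferon list and 1 to the constitutive list. By class, 13 members were higher in classical monocytes (background 6.36%), 13 in macrophages (background 5.03%), 9 in B cells (background 1.91%), 7 in type 2 dendritic cells (background 3.12%), 5 in NK cells (background 0.906%), 4 in non-classical monocytes (background 2.75%) and 2 in plasmacytoid dendritic cells (background 0.916%). The median log2 fold change of the interferon list was 1.33 in classical monocytes, 1.20 in macrophages and 0.93 in B cells, where it was 1.13, 0.82 and 1.08 for IFNa over the same Control livers.

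The constitutive call was Trim11 in macrophages, at 39.97 CPM in the combination liver and 25.05 and 27.0 in IFNa livers, against 18.7 and 24.3 in Control livers (combination over Control log2 fold change 1.03 ± 0.29, edgeR adjusted p = 0.0455). Trim11 is a ligase studied for its part in clearing misfolded proteins. Trim21 in macrophages stood at 42.6 in the combination liver and at 22.3 and 32.6 in IFNa livers, against 17.3 and 16.7 in Control livers (combination over Control 1.34 ± 0.31, edgeR adjusted p = 0.0190). Trim26 in macrophages (0.91, edgeR adjusted p = 0.0406) and in B cells (0.68, edgeR adjusted p = 0.0471), Trim5 in macrophages (1.25, edgeR adjusted p = 0.0491), Trim21 in type 2 dendritic cells (1.36, edgeR adjusted p = 0.0345) and Trim34a in non-classical monocytes (1.83, edgeR adjusted p = 0.0226) were also called for the combination and not for IFNa, without a call of the difference between them. Without Control liver 11 the edgeR adjusted p in macrophages was 0.238 for Trim11, 0.0953 for Trim21, 0.107 for Trim26 and 0.115 for Trim5, and it was 0.523 for Trim34a in non-classical monocytes. Without Control liver 25 it was 0.0609 for Trim26 and 0.0618 for Trim5 in macrophages. Without IFNa liver 18 or 23 it was 0.0600 or 0.0756 for Trim26 in B cells, and 0.0718 or 0.0785 for Trim34a in non-classical monocytes. All 7 of these calls also ended with DESeq2, whose adjusted p was lowest for Trim21 in macrophages (0.184) and highest for Trim34a in non-classical monocytes (0.845). For Trim21 in macrophages the combination over Control log2 fold change was 0.41 with classes from Leiden clusters (edgeR adjusted p = 0.744), and the adjusted p was 0.165 with the stricter marker gate.

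Tested against the IFNa livers, the combination liver had 0 of 367 pairs higher and 0 lower by edgeR, where 0.436% of all gene and class pairs were higher and 0.139% were lower. At an unadjusted p under 0.05, edgeR gave 16 higher and 7 lower, and DESeq2 called 0, with 3 at an unadjusted p under 0.05. The pair nearest to the threshold was Trim12c in macrophages, at 89.5 CPM in the combination liver against 52.8 and 59.7 in IFNa livers (log2 fold change 0.76, edgeR adjusted p = 0.0780).

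Members also differed between cell classes. In the fit of each of 17 classes against the mean of the others, with library as a block, 182 of 697 pairs of 41 members were higher and 102 lower by edgeR, where 24.1% of all gene and class pairs were higher and 13.4% were lower. The members' shares are near that background, and most genes that pass the filter differ between classes of cells. Of the interferon list, 79 pairs were higher and 42 lower, of the constitutive list 57 and 46, and of the lineage list 46 and 14. In the Control livers alone, with fewer libraries in the fit, 116 pairs were higher and 21 lower.

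**Figure D5:**
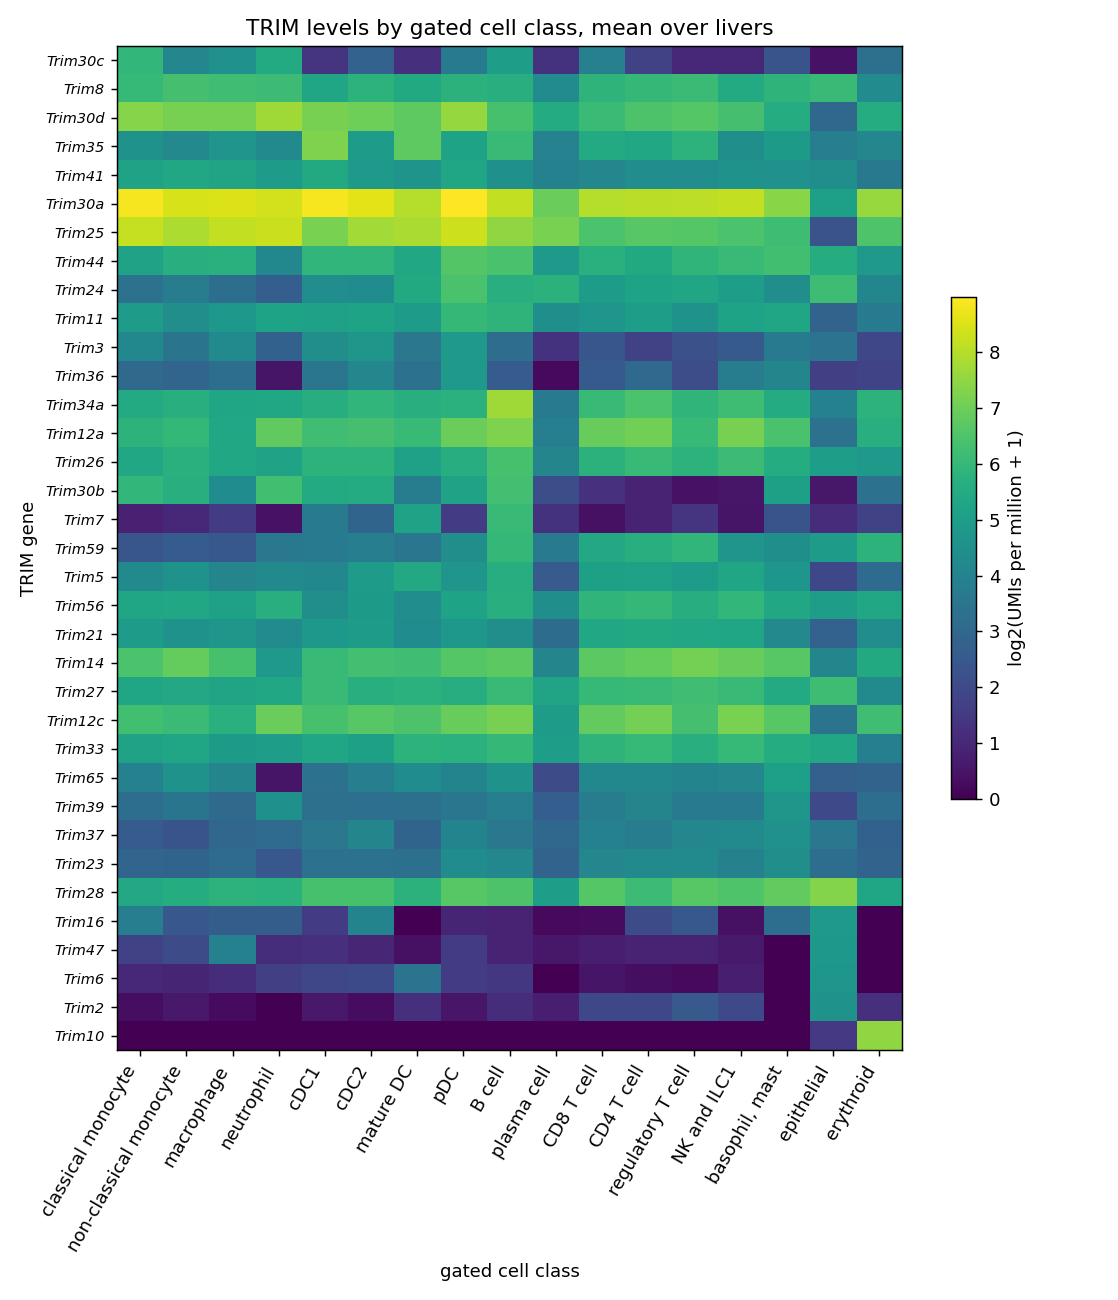
Mean level over livers, as log2 of CPM plus 1, of TRIM members that reached 20 CPM (rows) in 17 gated classes (columns). Trim10 is highest in the erythroid column, Trim7 is highest in B cells and mature dendritic cells, and Trim2, Trim6, Trim16 and Trim47 are highest in epithelial cells.

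Trim7, a ligase first described as a glycogenin-interacting protein, marked B cells. It stood at 61.1 and 64.5 CPM in B cells of IFNa livers and 67.0 in the combination liver, against 73.8 and 67.9 in Control livers, with a log2 difference of 4.78 ± 0.15 (SE) from the mean of the other classes (edgeR adjusted p = 4.736e-38). The IFNa livers lay just below the Control livers, without a call between them. The share of B cells with a Trim7 UMI was 20.6% and 25.1% in IFNa livers and 26.7% in the combination liver, against 24.0% and 27.9% in Control livers. Among CD8 T cells, with the greater depths given above, it was 0% and 0.213% in IFNa livers and 0.648% in the combination liver, against 0.376% and 0% in Control livers. In every library the B cell share was far above the CD8 T cell share, although the B cells were shallower. Mature dendritic cells were the other Trim7 class, at 47.4 and 33.1 CPM in IFNa livers and 18.1 in the combination liver, against 43.5 in Control liver 11 (log2 difference 3.97 ± 0.27). Trim35, a ligase of the constitutive list, led in type 1 conventional dendritic cells, at 151 and 154 in IFNa livers and 142 in the combination liver, against 161 in Control liver 11 (2.36 ± 0.15).

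Trim10, required for terminal red cell differentiation, was found in the erythroid class, at 252 and 208 CPM in IFNa livers and 44.0 in the combination liver, against 211 in Control liver 11. B cells of all 5 libraries held 0 Trim10 UMIs, which allows a share of cells with a UMI of up to 0.259% in IFNa liver 18. Its erythroid neighbour Trim58, which works on dynein during nuclear expulsion, stood at 16.2 and 16.4 in IFNa livers and 4.89 in the combination liver, against 18.3 in Control liver 11. An erythroid level of 3 UMIs equals 24.35 and 16.39 CPM in IFNa livers, 14.67 in the combination liver and 13.74 in Control liver 11. Trim58, with 28 UMIs in all kept cells, was thus too low there to compare livers. The erythroid gate of the combination liver stood apart from the other libraries. Its 136 barcodes had a median of 1320.5 UMIs, and 0.735% of them had a Trim10 UMI, against 47.6% and 20% in IFNa livers and 40.7% in Control liver 11. In the same gate the erythroid Hba-a1 stood at 180800 and 101800 CPM in IFNa livers and 15330 in the combination liver, against 182200 in Control liver 11. The T cell gene Cd3e stood there at 0 and 43.7 in IFNa livers and 543 in the combination liver, against 27.5 in Control liver 11, and Cd8a at 0 and 60.1 in IFNa livers and 269 in the combination liver, against 0 in Control liver 11. The part of other cells in the lower Trim10 level was not tested.

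Epithelial cells held the highest levels of several lineage members. The combination liver supplied 16 epithelial cells with 185022 UMIs, so that its values below rest on 1 UMI for Trim2 and on 7 UMIs each for Trim47 and Trim16. Trim2, a ligase known from neurons, stood at 27.3 and 33.1 CPM in IFNa livers and 5.40 in the combination liver, against 26.5 and 26.0 in Control livers (log2 difference from the mean of other classes 5.08 ± 0.28, edgeR adjusted p = 5.562e-25). Trim47 stood at 31.2 and 15.9 in IFNa livers and 37.8 in the combination liver, against 20.6 and 27.6 in Control livers (4.61 ± 0.35), and it was also higher in macrophages (3.99 ± 0.33). IFNa and Control livers overlapped for Trim47 and not for Trim2, without a call for either. Trim47 overlaps Trim65 on the same strand, so their reads may be exchanged. Trim16, an autophagy adaptor for damaged lysosomes, stood at 22.99 and 22.97 in IFNa livers and 37.8 in the combination liver, against 24.95 and 32.5 in Control livers (3.95 ± 0.28). It was also higher in classical monocytes (3.18 ± 0.26) and type 2 dendritic cells (3.16 ± 0.32), and it overlaps Fbxw10 on the same strand. Trim28 was highest in epithelial cells as well, at 176 and 171 in IFNa livers and 157 in the combination liver, against 162 and 125 in Control livers (1.18 ± 0.10).

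Trim36 in plasmacytoid dendritic cells stood at 26.8 and 23.6 CPM in IFNa livers and 29.7 in the combination liver, against 17.7 and 38.8 in Control livers (log2 difference from other classes 2.10 ± 0.30). Trim24 in the same cells stood at 69.1 and 66.2 in IFNa livers and 108 in the combination liver, against 79.0 and 93.1 in Control livers (1.58 ± 0.14). Neither gene separated IFNa from Control livers beyond the call threshold. Among the interferon list, Trim34a was highest in B cells (2.19 ± 0.10) and Trim30c in classical monocytes (3.71 ± 0.18). In the Control livers alone those differences were 2.41 ± 0.17 for Trim34a and 4.01 ± 0.47 for Trim30c.

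Genes on which antiviral TRIM proteins act were compared beside them, from a list of substrates and partners. Of 20 partners tested in classical monocytes 9 were higher and 0 lower in IFNa livers by edgeR, and in B cells 8 of 20 were higher and 0 lower, with medians of 0.50 and 0.42 on the log2 scale, beside the backgrounds of 5.82% and 1.25% of genes. Partners higher were 8 of 20 in macrophages, 9 of 19 in type 2 dendritic cells, 7 of 19 in non-classical monocytes, 5 of 20 in NK cells and 4 of 20 in plasmacytoid dendritic cells. In neutrophils 2 of 17 were higher, in CD8 T cells 3 of 20, in regulatory T cells 3 of 19 and in CD4 T cells 2 of 19. In epithelial cells edgeR and DESeq2 called 0 of 20, with 7 and 3 higher at an unadjusted p under 0.05. Ddx58, which encodes the TRIM25 substrate RIG-I, stood at 217 and 223 CPM in classical monocytes of IFNa livers and 250 in the combination liver, against 50.4 and 67.1 in Control livers (log2 fold change 1.95 ± 0.16, edgeR adjusted p = 0.000758). Irf7, the transcription factor that amplifies the interferon response, stood at 1668 and 1745 in IFNa livers and 2160 in the combination liver, against 164 and 247 in Control livers (3.08 ± 0.21, edgeR adjusted p = 0.000413). Both were well above the Control livers. Pml, a tripartite motif gene under another name and the scaffold of nuclear bodies, stood at 109 and 112 in IFNa livers and 134 in the combination liver, against 25.6 and 34.7 in Control livers (1.94 ± 0.16, edgeR adjusted p = 0.000745), and it was called in 7 classes. Of 15 partners of the Trim28 silencing complex tested in classical monocytes, 1 was higher (Morc3, 0.68) and 2 were lower (Uhrf1, fell by 1.86 on the log2 scale, and Hdac2, fell by 0.61), where 5.82% of all genes tested were higher and 3.42% lower. In the other 11 classes edgeR and DESeq2 called 0 of 156 pairs of that list, with 10 higher and 5 lower at an unadjusted p under 0.05 by edgeR and 2 higher by DESeq2.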

How the data were processed

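Livers were dissociated and viable cells sorted, per the labels' protocols, and the submitters' processing notes name Cell Ranger 7.0.1 and the build mm10. The deposited files hold UMI counts per gene and cell barcode, not normalized by the authors, with no cell annotation. The labels' protocols describe a kit of the 3′ type although receptor libraries were also made, so which transcript end was read is unsure. Of 28039 barcodes, 27771 passed a floor of 200 detected genes and a ceiling of 15% mitochondrial UMIs, and predicted doublets were removed at an assumed 0.8% per 1000 cells, per library, with scanpy 1.11.5 (26229 left). Cells were gated by marker genes, with thresholds set after marker detection had been seen, and 1100 ambiguous cells were left out. The TRIM members, the gene lists and the markers were chosen with earlier results of these data known. Counts were summed per library and class of at least 10 cells and fitted with edgeR 4.0.16 (TMM, filterByExpr, quasi-likelihood test, 3 groups in 1 fit, R 4.3.3), and p-values were adjusted over all genes of a class. The scripts were tested on simulated data. Alternatives were DESeq2 1.42.0, no low-count filter, doublets kept, a stricter gate, classes from Leiden clusters, no combination liver, summed paralogues, Control livers only, and each liver left out. Per-library values were printed for members called in 3 or more classes, or in 1 class at 20 CPM without overlap of the groups, for those called for the combination, and for those at 20 CPM and at least 4-fold over the median class. Trim24, Trim28, Trim33, Trim36, Trim58 and Trim59 fall outside that rule and were chosen after their values were seen. Library totals were 10464216 to 69856071 UMIs. Exact Clopper-Pearson intervals (95%) cover counting error only.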

Additional observations from a re-analysis of the deposited data

How the results depend on the processing

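No paired analysis was possible because the liver numbers 18, 23, 22, 11 and 25 are shared by no groups. The 50 member and class pairs higher in IFNa than in Control livers became 33 with DESeq2, and ranged from 34 (without Control liver 11) to 56 as single livers were left out and from 45 to 66 in the other alternatives; 20 of the 50 were kept in all, and 23 were lost without Control liver 11. The 0 lower pairs became 4 without the low-count filter and 1 with the stricter gate, with 0 to 1 as livers were left out. For the combination over Control, 53 higher became 29 with DESeq2, 38 to 59 as livers were left out and 43 to 65 otherwise; 0 lower became 2 without the filter and 1 with Leiden classes, with 0 to 1 as livers were left out. For the combination over IFNa, 0 higher became 3 without the filter, with 0 to 1 as livers were left out. Between classes, 182 higher and 102 lower became 116 and 21 in Control livers alone. The interaction with CD8 T cells gave 0 to 2 calls as livers were left out. No called fold change reversed its sign in the alternatives run, while the uncalled ones of Trim33 in classical monocytes (−0.04 to 0.05), Trim36 in plasmacytoid dendritic cells (−0.62 to 0.50) and Trim2 (−0.03 to 0.24) and Trim47 (−0.76 to 0.39) in epithelial cells took both signs. Control liver 25, with 863 barcodes, limits the precision of each class, and the combination rests on 1 liver. The causes of these shifts were not tested.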
